A study of Danio rerio with 6 samples.

Results

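Skeletal muscle contractile genes encode the proteins with which striated muscle shortens, and the rows of the deposited count table that carry such names were compared between sorted zebrafish iridophores and a general cell population. Rows were taken by the start of the symbol: skeletal and cardiac actins (acta1, actc1), creatine kinases (ckm), myosin heavy and light chains (mylpf, myhz, myhb, myhc, smyhc, myl followed by 1 to 4), troponins (tnnc, tnni, tnnt), tropomyosins (tpm), parvalbumins (pvalb), calcium pumps of the sarcoplasmic reticulum (atp2a1, atp2a2), the giant proteins nebulin and titin (neb, ttn), myosin-binding protein C (mybpc), ryanodine receptors (ryr), calsequestrins (casq), muscle actinins (actn2, actn3), ldb3 and desmin (desm). This gave 75 of the 11016 rows, of which 64 passed the filter on low counts and were tested and 11 did not.

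All 6 samples were FACS-sorted cells of larvae at 5 days post fertilization (5 dpf), labelled WT and carrying the transgene Tg(pnp4a:PALM-mCherry), in which the promoter of pnp4a, an iridophore gene of purine metabolism, drives a membrane-bound red fluorescent protein. The iridophore group has 3 libraries and the general cell population that serves as control has 3, each from about 20000 cells, and the labels call the collections biological replicates. Whether cells with the reporter were removed from the control is not given in the labels. Libraries were made with a bulk form of MARS-seq, which counts the 3' ends of polyadenylated transcripts, so levels are compared here between libraries and not between genes.

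A skeletal muscle fibre shortens when myosin heads of the thick filament pull on actin of the thin filament. Calcium released from the sarcoplasmic reticulum through the ryanodine receptor binds troponin C, which moves troponin and tropomyosin off the actin sites, and the calcium pump and parvalbumin then remove it. Fast and slow fibres use different genes for many of these proteins, and in fish larvae the slow fibres form a superficial layer over a bulk of fast fibres. Iridophores are pigment cells with reflecting purine crystals and are not contractile cells. The rows were assigned to a fast class, a slow class, a heart class, a class of sarcomere and energy proteins shared by fast and slow fibres, and a class of widely expressed isoforms. The fibre type of several families is known mainly from mammals, and rows without a sure assignment were kept apart. The classes were set with earlier results of these data known. Rows that slow fibres share with other cells (tpm3, atp2a2a and atp2a2b) were put with the widely expressed isoforms, so values of the slow class leave them out.

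Total counts were 616439 to 1686552 in the iridophore libraries and 1612637 to 3282480 in the control libraries, so a count of 3, taken as the floor, stood for 1.69 to 5.50 counts per 1000000 (CPM) in iridophores and 0.897 to 1.79 CPM in the control. Replicate 1 of both groups carries another ending of the library name than replicates 2 and 3 and stood apart in many muscle rows. Of the 10 iridophore markers in the table all 10 were higher in iridophores, from a log2 fold change of 4.45 upward. These markers include pnp4a, whose promoter drives the reporter, and were listed with earlier results of these data known. They describe the iridophore libraries and are not an independent check of the label. The muscle rows are described as RNA recovered in that sort. In bulk samples, more cells of a type and more RNA per cell cannot be told apart.

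Together the 75 rows took 2.46%, 2.98% and 3.47% of the counts in the iridophore libraries and 1.54%, 1.83% and 1.99% in the control libraries, in the order of replicates 1, 2 and 3 (95% Wilson intervals with a half-width of at most 0.0387 percentage points, counting error only). Every iridophore library lay above every control library. The means were 2.97% ± 0.503 and 1.79% ± 0.229 (SD, n = 3 each), a ratio of 1.66. The ratio was 1.6 within replicate 1 and 1.69 within replicates 2 and 3. The iridophore library with the highest share, replicate 3, had a total count inside the range of the control libraries. Within the iridophore group the share rose with the total count, while the deepest control library, replicate 1, had the lowest share. An effect of depth was not tested.

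Of the 64 tested rows, edgeR called 27 higher in iridophores and 3 lower (adjusted p under 0.05), and 34 were not called. Over all 6849 tested genes 22.1% were called higher and 17.8% lower. At an unadjusted p under 0.05 by edgeR, 1790 of the 6849 were higher and 1545 lower. These are the background for each class and list count below. The median log2 fold change of the tested rows was 0.48, against 0.01 over all tested genes. Groups did not overlap, with iridophores higher, for 29 of the 64 rows, against 27.0% of all tested genes, and with iridophores lower for 2, against 24.9%. The members included many abundant genes. Among the 24 tested members with a mean of at least 100 CPM, 15 were called higher, while of the 1026 tested genes at that level 24.1% were. The count of members called lower was 7 without control replicate 1, and 1 without iridophore replicate 2, control replicate 2 or control replicate 3. Over all tested genes 1066 were called lower without control replicate 1, and 860, 994 and 957 in the other fits in that order. The reported fit called 1217 lower.

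**Figure D1:**
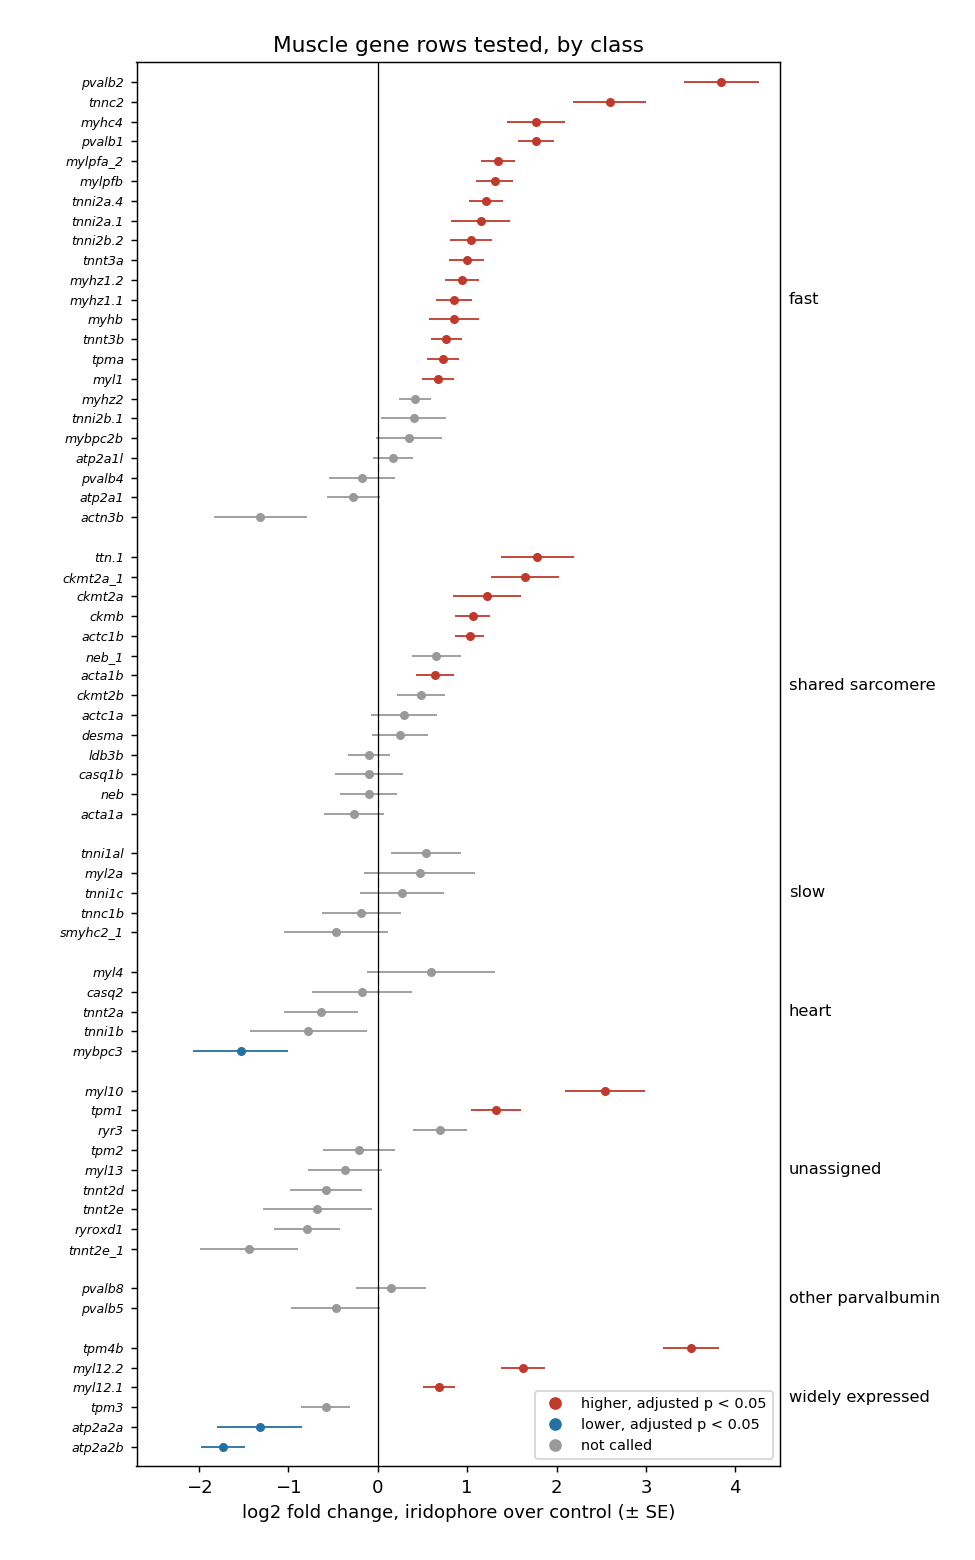
Log2 fold change of iridophores over control for the 64 tested rows, grouped by class, with bars of 1 SE; red rows were called higher, blue rows lower and grey rows not called. In the fast class 16 of 23 rows lie in red, while the slow class has 0 called rows and the heart class 1, in the lower direction.

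The fast class held 16 of the 27 members called higher. Of its 26 rows 23 were tested, and 16 were higher (69.6%, against 22.1% of all tested genes) and 0 lower. The median log2 fold change was 0.85, with a range from -1.31 to 3.84. At an unadjusted p under 0.05, 17 were higher and 1 was lower (actn3b). DESeq2 called 15 higher and 1 lower, and limma-voom 16 and 0. Of all tested genes these called 19.5% and 23% higher. Without control replicate 2, 10 of 24 tested fast rows were called higher, with a median of 0.88. In that fit 17.6% of all tested genes were called higher. The class took 1.48%, 1.73% and 1.98% of the counts in the iridophore libraries and 0.865%, 1.01% and 1.08% in the control libraries, and the groups did not overlap.

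Myosin heavy chains carry the motor of the thick filament. The larval fast chain myhz1.1 stood at 2590.2, 2410.2 and 2266 CPM in the iridophore libraries and at 1013, 1422 and 1586 CPM in the control libraries. The groups were separate, and replicate 1 was the highest iridophore library and the lowest control library. Its log2 fold change was 0.85 (± 0.20 SE, adjusted p 0.00806 by edgeR), and the call was lost without control replicate 2 (edgeR adjusted p 0.0527). The neighbouring fast chain myhz1.2 rose by 0.94 (± 0.19 SE, adjusted p 0.00376 by edgeR). The fast chain myhc4 was low in both groups and rose from 6.20 ± 1.25 to 20.4 ± 2.09 CPM (SD, n = 3 each), a log2 fold change of 1.77 (± 0.32 SE, adjusted p 0.00192 by edgeR). A further fast chain, myhz2, had no overlap between groups, at 890.3, 964 and 1038 CPM in the iridophore libraries and at 642, 755 and 776 CPM in the control libraries, but was not called (0.41, ± 0.18 SE, adjusted p 0.0896 by edgeR) except with a term for the library name's ending (edgeR adjusted p 0.0402). Ratios of counts within a library were formed for 12 pairs of genes chosen after their values were seen, so they are descriptions with no test, and in 4 of the 12 the groups overlapped. The count of myhz1.1 per count of myhz2, which does not depend on library scaling, was 2.91, 2.5 and 2.18 in the iridophore libraries and 1.58, 1.88 and 2.04 in the control libraries. This pair sets a called row against one not called in the reported fit, so its order largely restates those calls. The chain myhb had a log2 fold change of 0.85 (± 0.28 SE, adjusted p 0.0353 by edgeR), a call lost in 10 of the 18 alternatives. In the RefSeq gene order of GRCz12tu, myhz2 and myhc4 are direct neighbours, as are myhz1.2 and myhz1.1, with 2 genes between the pairs. Gene copies that are alike in sequence can share reads. The sequences of these chains were not compared here, so the split of counts among them is uncertain.

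Light chains stabilise the myosin neck and tune the motor. The row mylpfa_2, named for a fast regulatory light chain, stood at 969, 900.2 and 1201 CPM in the iridophore libraries and at 409, 384 and 417 CPM in the control libraries. All 3 iridophore libraries were far above the narrow control range, and the log2 fold change was 1.34 (± 0.19 SE, adjusted p 0.000415 by edgeR). The related mylpfb rose by 1.31 (± 0.20 SE, adjusted p 0.000798 by edgeR). The fast essential light chain myl1 rose less, by 0.67 (± 0.18 SE, adjusted p 0.0147 by edgeR), and lost its call when any of the 3 control libraries was left out (edgeR adjusted p 0.0688 to 0.114).

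**Figure D2:**
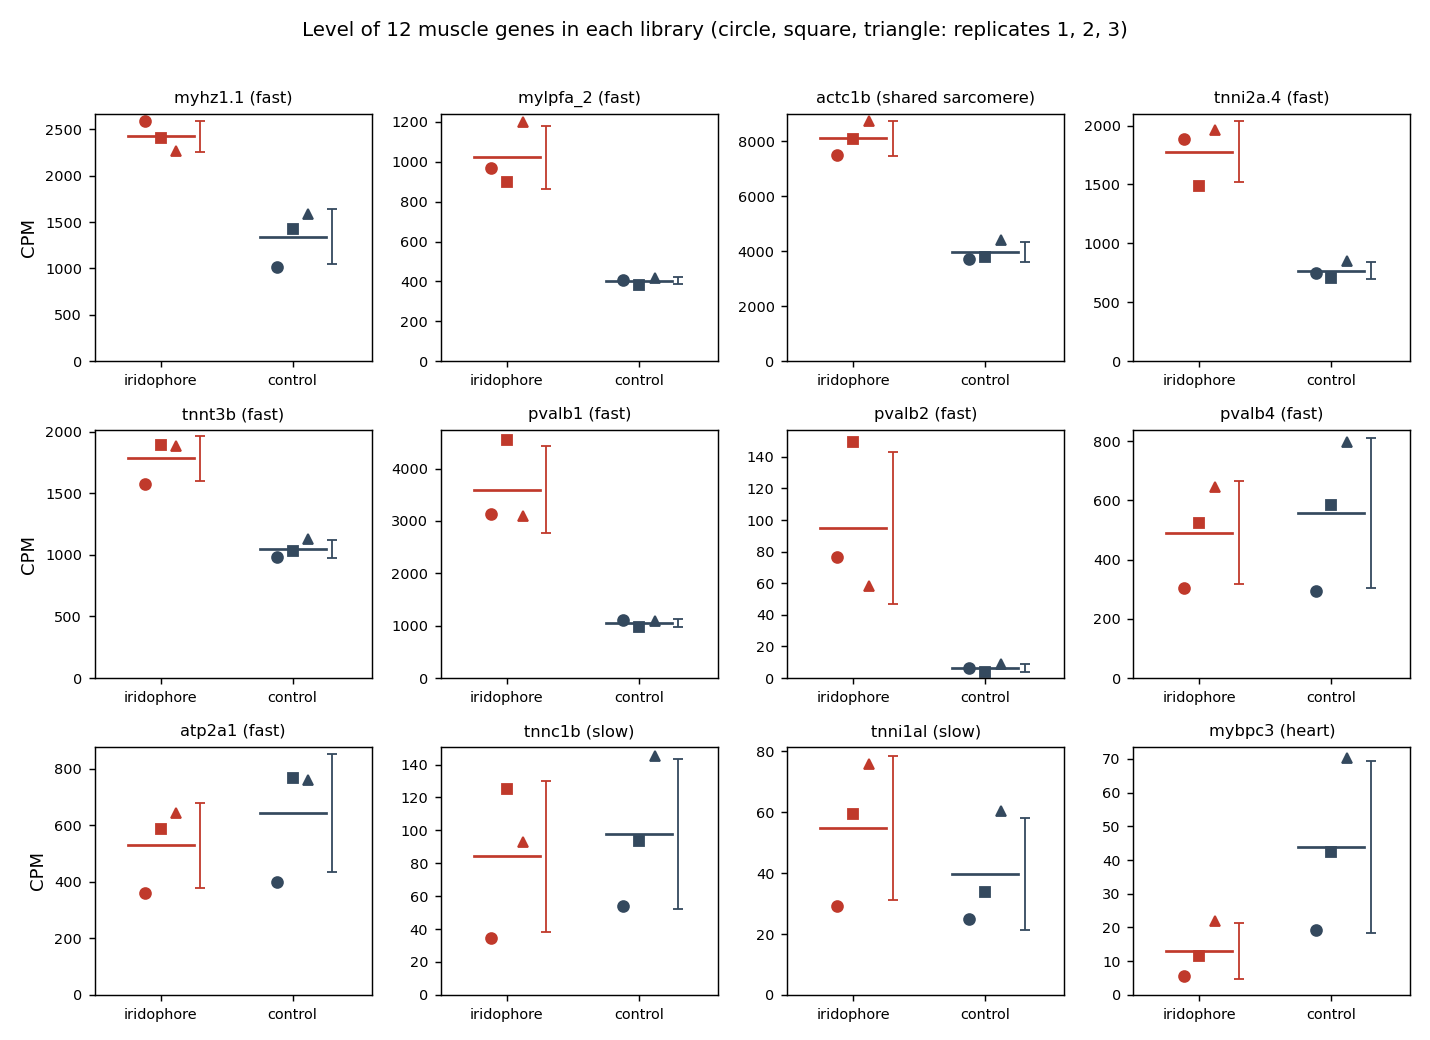
Level in CPM of 12 genes in each of the 6 libraries; points are libraries (circle, square and triangle for replicates 1, 2 and 3), horizontal lines are group means and bars are SD (n = 3). Fast genes such as pvalb1 and mylpfa_2 separate the groups, whereas pvalb4, atp2a1, tnnc1b and tnni1al overlap and are lowest in replicate 1 of both groups.

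On the thin filament, troponin I is the inhibitory subunit, troponin T binds tropomyosin and troponin C binds calcium. The fast troponin I gene tnni2a.4 stood at 1885, 1487 and 1964 CPM in the iridophore libraries and at 751, 706 and 852 CPM in the control libraries. The groups were separate, and the log2 fold change was 1.21 (± 0.19 SE, adjusted p 0.000784 by edgeR). The other fast troponin I rows were unequal. The rows tnni2a.1 and tnni2b.2 rose by 1.15 and 1.04 (edgeR adjusted p 0.0201 and 0.00622), with the call of tnni2a.1 lost in replicates 2 and 3 alone and without iridophore replicate 2, control replicate 2 or control replicate 3 (edgeR adjusted p 0.0542 to 0.09). The row tnni2b.1 was not called (0.40, ± 0.36 SE, adjusted p 0.408 by edgeR), and tnni2a.2 was not tested in the reported fit, with 0 to 4 counts in the iridophore libraries and 4 to 24 in the control libraries. In the fit to replicates 2 and 3 alone tnni2a.2 was tested and called lower. The fast troponin T genes tnnt3b and tnnt3a rose by 0.77 (± 0.17 SE, adjusted p 0.00634 by edgeR) and 0.99 (± 0.19 SE, adjusted p 0.00268 by edgeR), and the call of tnnt3b was lost without control replicate 2 (edgeR adjusted p 0.0657). The fast troponin C gene tnnc2 was near the floor in the control, with 6, 4 and 7 counts, and had 6, 11 and 31 counts in the shallower iridophore libraries, a log2 fold change of 2.59 (± 0.41 SE, adjusted p 0.000888 by edgeR). The alpha-tropomyosin gene tpma stood at 2037, 2481 and 2861 CPM in the iridophore libraries and at 1435, 1486 and 1526 CPM in the control libraries. The groups did not overlap, and the log2 fold change was 0.73 (± 0.18 SE, adjusted p 0.01 by edgeR), which lost its call without control replicate 2 or 3 (edgeR adjusted p 0.0801 and 0.0545). The genes tnni2a.4 and tnnt3a, and also tnni2b.1 and tnnt3b, lie with 2 genes between them in the RefSeq order.

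Parvalbumins are soluble calcium buffers, which in fast fibres speed relaxation, and their rows differed among themselves. The rows pvalb1, pvalb2 and pvalb4 were put in the fast class. The rows pvalb5, pvalb7 and pvalb8 were kept apart as other parvalbumins and are not counted as fast. The gene pvalb1 stood at 3138, 4552 and 3089 CPM in the iridophore libraries and at 1106, 974 and 1083 CPM in the control libraries, with a log2 fold change of 1.77 (± 0.20 SE, adjusted p 0.000134 by edgeR). The gene pvalb2 had 42, 103 and 104 counts in the iridophore libraries and 21, 7 and 17 in the control libraries, that is 95 ± 48.1 and 6.39 ± 2.28 CPM (SD, n = 3 each). At 3.84 (± 0.42 SE, adjusted p 9.37e-05 by edgeR) it had the largest log2 fold change among the tested members, and its value ranged from 3.35 without iridophore replicate 2 to 4.09 without iridophore replicate 3. The gene pvalb4 was not called. It stood at 304, 524 and 645 CPM in the iridophore libraries and at 293, 585 and 797 CPM in the control libraries, the groups overlapped, and the log2 fold change was -0.18 (± 0.37 SE, adjusted p 0.731 by edgeR). The count of pvalb1 per count of pvalb4 was 10.3, 8.68 and 4.79 in the iridophore libraries and 3.77, 1.67 and 1.4 in the control libraries. The ratio was higher in every iridophore library, and within each group highest in replicate 1. It sets a called gene against one that was not called, so the order of the groups largely restates those calls. In the RefSeq order the genes pvalb8, pvalb4, pvalb1 and pvalb5 follow each other with no gene between them, and of the 4 pvalb1 alone was called. The log2 fold changes of pvalb8 and pvalb5 were 0.15 (edgeR adjusted p 0.794) and -0.47 (edgeR adjusted p 0.481), and pvalb5 was called lower in replicates 2 and 3 alone (-1.45, edgeR adjusted p 0.000773). The gene pvalb7 was not tested, with 1, 3 and 9 counts in the iridophore libraries and 0, 0 and 1 in the control libraries.

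Among the tested rows of the sarcoplasmic reticulum, none was called higher by edgeR in the reported fit. The pump of fast sarcoplasmic reticulum, atp2a1, stood at 359, 585 and 644 CPM in the iridophore libraries and at 401, 768 and 758 CPM in the control libraries. Replicate 1 was low in both groups and the groups overlapped, with a log2 fold change of -0.27 (± 0.30 SE, adjusted p 0.497 by edgeR). The related atp2a1l had a log2 fold change of 0.17 (± 0.22 SE, adjusted p 0.571 by edgeR). Of the 8 tested rows of calcium pumps, ryanodine receptors, calsequestrins and the row ryroxd1 that the rule also takes, 0 were higher and 2 were lower by edgeR, and at an unadjusted p under 0.05 1 was higher and 2 were lower. The 2 lower rows were atp2a2a and atp2a2b, which were put with the widely expressed isoforms. Over all tested genes 22.1% were called higher and 17.8% lower. The receptor gene ryr3 had a log2 fold change of 0.70 (± 0.30 SE, adjusted p 0.0908 by edgeR), and ryr1b was not tested, with 13, 4 and 22 counts in the iridophore libraries and 2, 4 and 11 in the control libraries. Scaled for depth, ryr1b stood at 23.8, 5.81 and 12.4 CPM in the iridophore libraries and at 0.598, 2.38 and 5.64 CPM in the control libraries. Its groups did not overlap, on few counts. The calsequestrin gene casq1b, the calcium store of skeletal muscle, had a log2 fold change of -0.10 (± 0.38 SE, adjusted p 0.861 by edgeR). The myosin-binding protein gene mybpc2b was not called (0.35, ± 0.37 SE, adjusted p 0.489 by edgeR). The fast actinin gene actn3b, an anchor of actin in the Z disc, averaged 6.31 ± 5.26 CPM in the sort and 20 ± 8.53 CPM in the control (SD, n = 3 each) and was not called (-1.31, ± 0.52 SE, adjusted p 0.0698 by edgeR). It was called lower in 7 of the 18 alternatives, among them the fit to replicates 2 and 3 alone (edgeR adjusted p 0.0254). Its paralog actn3a had 0 counts in the control and 0, 1 and 6 in iridophores and was not tested.

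Among the 14 tested rows of proteins shared by fast and slow fibres, 6 were higher (42.9%, against 22.1% of all tested genes) and 0 lower by edgeR. The median log2 fold change was 0.56, and at an unadjusted p under 0.05 7 were higher and 0 lower. DESeq2 and limma-voom each called 6 higher and 0 lower, against 19.5% and 23% of all tested genes called higher. The actin row actc1b stood at 7481, 8089 and 8744 CPM in the iridophore libraries and at 3729.6, 3791 and 4407 CPM in the control libraries. Every iridophore library lay far above the control range, and the log2 fold change was 1.03 (± 0.16 SE, adjusted p 0.000916 by edgeR). The skeletal actin gene acta1b rose by 0.65 (± 0.21 SE, adjusted p 0.0352 by edgeR), a call lost in 8 of the 18 alternatives. Its paralog acta1a was not called, at 73.3, 138 and 138 CPM in the iridophore libraries and at 85.5, 148 and 193 CPM in the control libraries (-0.27, ± 0.34 SE, adjusted p 0.554 by edgeR), and neither was actc1a (0.29, ± 0.37 SE, adjusted p 0.556 by edgeR). The count of actc1b per count of acta1a was 102, 58.6 and 63.5 in the iridophore libraries and 43.6, 25.7 and 22.8 in the control libraries. That of acta1b per count of acta1a was 7.58, 6.19 and 6.29 in the iridophore libraries and 5.39, 3.38 and 2.57 in the control libraries. These ratios set called rows against one that was not called, and their order largely restates those calls. The groups overlapped for actc1b per count of myhz1.1, at 2.89, 3.36 and 3.86 in the iridophore libraries and 3.68, 2.67 and 2.78 in the control libraries. Actin genes are near-identical in coding sequence, and how the counting treated reads shared by copies is not given in the sources used here.

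Creatine kinases pass phosphate between ATP and creatine. The muscle form ckmb rose from 610.5 ± 52.9 to 1272 ± 212 CPM (SD, n = 3 each), a log2 fold change of 1.06 (± 0.19 SE, adjusted p 0.00203 by edgeR). The mitochondrial forms ckmt2a and ckmt2a_1 rose by 1.22 (± 0.38 SE, adjusted p 0.0286 by edgeR) and 1.65 (± 0.38 SE, adjusted p 0.00705 by edgeR), each with at most 25 counts in any control library. The third mitochondrial form, ckmt2b, was not called (0.48, ± 0.27 SE, adjusted p 0.185 by edgeR). The call of ckmt2a was lost in 4 of the 18 alternatives.

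Structural rows of the same class were mostly not called. The titin row ttn.1, the elastic ruler of the sarcomere, had 15, 24 and 60 counts in the iridophore libraries and 14, 23 and 23 in the deeper control libraries, a log2 fold change of 1.78 (± 0.41 SE, adjusted p 0.00683 by edgeR), and gave 1.3 without control replicate 1. The nebulin row neb stood at 45.8, 58.1 and 78.2 CPM in the iridophore libraries and at 41.0, 82.1 and 79.0 CPM in the control libraries, with overlapping groups and a log2 fold change of -0.10 (± 0.31 SE, adjusted p 0.821 by edgeR). The suffixed row neb_1 had 0.66 (± 0.28 SE, adjusted p 0.0844 by edgeR). The intermediate filament gene desma and the Z disc gene ldb3b had 0.25 (± 0.31 SE, adjusted p 0.561 by edgeR) and -0.10 (± 0.24 SE, adjusted p 0.772 by edgeR). The actinin gene actn2b was not tested, with at most 6 counts in any library.

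The slow class was small and low. Of its 7 rows 5 were tested, and 0 were higher and 0 lower by edgeR, by DESeq2 and by limma-voom. Over all tested genes edgeR called 22.1% higher and 17.8% lower. At an unadjusted p under 0.05 there were also 0. The class took 0.00860%, 0.0223% and 0.0231% of the counts in the iridophore libraries and 0.0104%, 0.0183% and 0.0271% in the control libraries, with Wilson intervals of a half-width of at most 0.00339 percentage points. Replicate 1 was lowest in both groups, and the groups overlapped. The slow troponin C gene tnnc1b, which slow fibres share with other striated muscle, stood at 34.8, 125 and 92.8 CPM in the iridophore libraries and at 54.1, 93.5 and 145 CPM in the control libraries, a log2 fold change of -0.18 (± 0.44 SE, adjusted p 0.768 by edgeR). The slow troponin I rows tnni1al and tnni1c had 0.53 (± 0.39 SE, adjusted p 0.307 by edgeR) and 0.27 (± 0.47 SE, adjusted p 0.674 by edgeR). The slow myosin heavy chain row smyhc2_1 had 4, 3 and 7 counts in the iridophore libraries and 10, 15 and 18 in the control libraries (-0.47, ± 0.58 SE, adjusted p 0.549 by edgeR), and smyhc2, with 2 to 8 and 10 to 18 counts, was not tested. The light chain row myl2a had 0.47 (± 0.62 SE, adjusted p 0.577 by edgeR), and tnnt1, with 3 to 7 counts in any library, was not tested. The SE of the tested slow rows was 0.39 to 0.62, against 0.17 for tnnt3b and 0.19 for mylpfa_2, so smaller changes were detectable in the abundant fast rows.

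Set against each other within a library, the fast and slow classes as assigned here did not separate the groups. The fast class had 171.6, 77.6 and 86.0 counts for each slow count in the iridophore libraries, and 83.0, 55.5 and 39.9 in the control libraries, again in replicate order. The ratio was higher in iridophores within each replicate number, but iridophore replicate 2 lay under control replicate 1, so the groups overlapped. Among replicates 2 and 3 alone they did not overlap. The same held for single troponin I genes. The count of tnni2a.4 per count of tnni1al was 64.3, 25 and 25.9 in the iridophore libraries and 30.3, 20.8 and 14.1 in the control libraries. For troponin C, on few tnnc2 counts, the count of tnnc2 per count of tnnc1b was 0.316, 0.128 and 0.188 in the iridophore libraries and 0.0331, 0.0255 and 0.0247 in the control libraries. The groups were separate, but this pair sets a called row against one that was not called. Its order largely restates those calls and does not show a difference between fast and slow genes. The same limit holds for tpma per count of tpm3, a row outside the slow class that slow fibres share with other cells. This ratio was 13.7, 8.90 and 9.20 in the iridophore libraries and 4.62, 3.92 and 3.59 in the control libraries, with no overlap. For tpma per count of tpm2, which has no fibre type assignment, the groups overlapped. The row tpm3 had 81, 192 and 553 counts in the iridophore libraries and 1037, 637 and 829 in the control libraries. The whole slow class had 53, 167 and 389 counts in the iridophore libraries and 342, 295 and 520 in the control libraries. With tpm3 counted as slow, the fast per slow ratio would not overlap between groups. That overlap thus depends on how the classes were set. The difference between the fast and slow classes in their response was not tested, so the calls in the fast class and their absence in the slow class do not show that the classes differ.

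**Figure D3:**
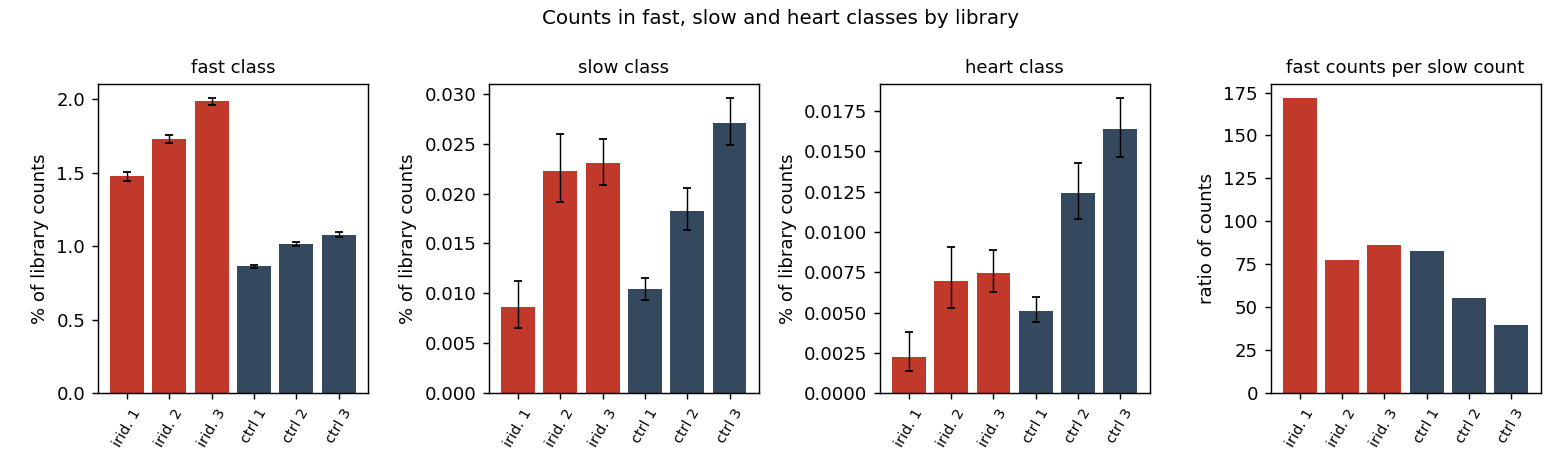
Share of all counts in each library taken by the fast, slow and heart classes, with 95% Wilson intervals, and the count of fast rows per count of slow rows. Bars are single libraries (red iridophore, blue control). The fast shares of 1.48% to 1.98% lie above the control range. Slow shares and the fast per slow ratio overlap between groups, with tpm3 left out of the slow class.

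Heart isoforms held no called rise. Of 6 rows 5 were tested, 0 were higher and 1 was lower by edgeR, and the counts were the same with p unadjusted. Over all tested genes 22.1% were called higher and 17.8% lower, so 1 lower row of 5 is near that share. The median log2 fold change was -0.63. The class took 0.00227%, 0.00694% and 0.00747% of the counts in the iridophore libraries and 0.00512%, 0.0124% and 0.0164% in the control libraries, and the groups overlapped. The cardiac myosin-binding protein gene mybpc3 stood at 5.50, 11.6 and 21.9 CPM in the iridophore libraries and at 19.1, 42.3 and 70.2 CPM in the control libraries. Control replicate 1 lay under iridophore replicate 3, so the groups overlapped, and the log2 fold change was -1.54 (± 0.53 SE, adjusted p 0.0436 by edgeR). This call was lost under limma-voom and without iridophore replicate 1, iridophore replicate 2, control replicate 2 or control replicate 3 (adjusted p 0.0558 to 0.151). The cardiac troponin T gene tnnt2a had -0.63 (± 0.42 SE, adjusted p 0.256 by edgeR) and was called lower in replicates 2 and 3 alone (-0.95, edgeR adjusted p 0.0137), and again when control replicate 1 was left out (-1.05, edgeR adjusted p 0.0199). The heart rows tnni1b, casq2 and myl4 had 0 to 43 counts in any library and were not called, and tnnc1a was not tested. Other heart markers outside the rule (vmhc, vmhcl, myl7, cmlc1 and nppa) were tested too, and 0 of 5 were called in either direction by edgeR or at an unadjusted p under 0.05.

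The other parvalbumins aside, 9 rows had no fibre type assignment, and all were tested. Of these 2 were higher and 0 lower by edgeR, and 3 and 1 when p was left unadjusted (under 0.05). The share called higher, 22.2%, was near the 22.1% of all tested genes. The median log2 fold change of these rows was -0.37. The regulatory light chain row myl10 stood at 76.9, 195 and 182 CPM in the iridophore libraries and at 12, 32.1 and 36.4 CPM in the control libraries, and it had a log2 fold change of 2.54 (± 0.45 SE, adjusted p 0.0017 by edgeR). Without control replicate 1 it gave 2.11. The tropomyosin gene tpm1 rose by 1.32 (± 0.28 SE, adjusted p 0.00461 by edgeR), while tpm2 had -0.21 (± 0.40 SE, adjusted p 0.705 by edgeR). The light chain row myl13 stood at 203, 483 and 469.6 CPM in the iridophore libraries and at 234, 545 and 723 CPM in the control libraries and was not called (-0.37, ± 0.42 SE, adjusted p 0.512 by edgeR). The troponin T rows tnnt2d, tnnt2e and tnnt2e_1 had log2 fold changes of -0.58, -0.68 and -1.45 (edgeR adjusted p 0.278, 0.406 and 0.0588). The row tnnt2d was called lower in replicates 2 and 3 alone, with a term for the library name's ending and without control replicate 1 (edgeR adjusted p 0.0125 to 0.0341). The row tnnt2e_1 was called lower in 7 of the 18 alternatives, the fit to replicates 2 and 3 alone included (-1.70, edgeR adjusted p 0.00157). The count of tnnt3b per count of tnnt2d was 27.7, 17.1 and 16.5 in the iridophore libraries and 15, 6.20 and 5.72 in the control libraries, with no overlap. Here too a called row is set against one that was not called in the reported fit, so the order largely restates those calls. The row ryroxd1 had -0.80 (± 0.37 SE, adjusted p 0.112 by edgeR).

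The rule also takes isoforms that are used outside striated muscle, and of its 9 such rows 6 were tested, with 3 higher and 2 lower. Over all tested genes 22.1% were called higher and 17.8% lower. The calcium pump of the endoplasmic reticulum, heart and slow muscle has the paralogs atp2a2a and atp2a2b. The row atp2a2b stood at 23.8, 16.0 and 26.4 CPM in the iridophore libraries and at 81.4, 75.0 and 69.7 CPM in the control libraries, 3.33-fold lower in iridophores (log2 fold change -1.73, ± 0.25 SE, adjusted p 0.00048 by edgeR). The row atp2a2a had -1.32 (± 0.48 SE, adjusted p 0.0495 by edgeR), and this call was lost in 7 of the 18 alternatives. The tropomyosin tpm4b moved in the other direction. It stood at 58.6, 69.7 and 100.1 CPM in the iridophore libraries and at 5.38, 8.93 and 6.67 CPM in the control libraries, 11.4-fold higher in iridophores (log2 fold change 3.50, ± 0.31 SE, adjusted p 2.69e-05 by edgeR). Its paralog tpm4a had 4, 4 and 11 counts against 3 in each control library, and was not tested. Scaled for depth, tpm4a stood at 7.33, 5.81 and 6.19 CPM in the iridophore libraries and at 0.897, 1.79 and 1.54 CPM in the control libraries. These groups did not overlap, with the control at the floor. The non-muscle regulatory light chains myl12.2 and myl12.1 rose by 1.62 (± 0.24 SE, adjusted p 0.00065 by edgeR) and 0.68 (± 0.18 SE, adjusted p 0.0121 by edgeR), and the call of myl12.1 was lost without control replicate 2 or 3 (edgeR adjusted p 0.129 and 0.0703). The tropomyosin tpm3, which slow fibres and other cells use, was not called (-0.58, ± 0.28 SE, adjusted p 0.12 by edgeR), but was called lower with the replicate block and with a term for the library name's ending (edgeR adjusted p 0.0214 and 0.013). The creatine kinase rows ckmt1 and ckmt1_1 had at most 3 counts in each iridophore library and 3 to 13 in the control libraries and were not tested.

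**Figure D4:**
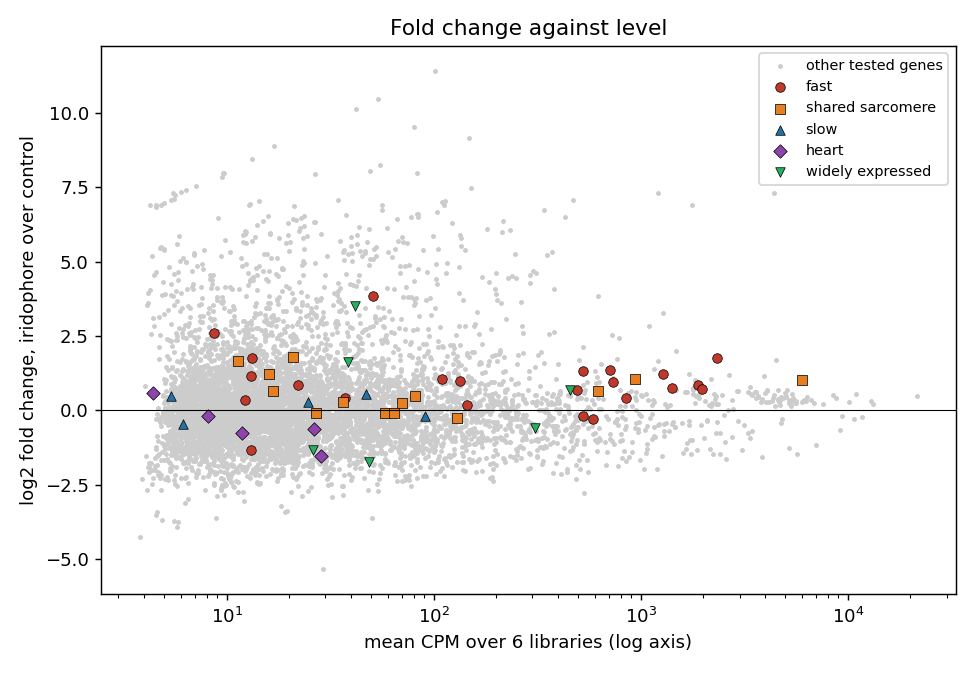
Log2 fold change against mean CPM over the 6 libraries (log axis) for tested genes, with the fast, shared, slow, heart and widely expressed classes in colour. Of the 6849 tested genes, members without a fibre type assignment and the other parvalbumins are not drawn. Many abundant fast and shared rows, such as actc1b at 1.03 and pvalb1 at 1.77, lie above 0, but atp2a1 (-0.27), pvalb4 (-0.18) and acta1a (-0.27) lie under it. Slow and heart rows lie at lower levels on either side of 0.

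In 37 of the 64 tested rows replicate 1 was the lowest library in both groups, or 57.8%, against 18.0% of all tested genes. They included 5 of 5 tested heart rows, 4 of 5 slow rows, 11 of 14 shared rows and 9 of 23 fast rows. Among the fast rows, myhz1.1, mylpfa_2, mylpfb, pvalb1 and tnni2a.4 did not follow this order, and atp2a1, pvalb4, tnnt3b and tpma did. Within replicates 2 and 3 alone 25 of 66 tested members were called higher and 9 lower, against 27 and 3 in the fit to all libraries. Of the 7251 genes tested in that fit, 1703 (23.5%) were called higher and 1468 lower. The cause of the replicate difference was not tested.

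Other genes of muscle, outside the rule, were compared by list. Of 14 tested genes of the Z disc, M band and sarcomere assembly, 4 were higher and 0 lower (5 and 1 at an unadjusted p under 0.05), with a median log2 fold change of 0.58. The share called higher was 28.6%, against 22.1% of all tested genes. The gene flncb, an actin crosslinker, and myoz1b, a Z disc protein, had 4.02 (± 0.51 SE, adjusted p 0.000226 by edgeR) and 3.57 (± 0.47 SE, adjusted p 0.000279 by edgeR), each with 10 or fewer counts in every control library. The M band gene myom2a had 0.75 (± 0.23 SE, adjusted p 0.0249 by edgeR) and myoz2a 0.90 (± 0.31 SE, adjusted p 0.0426 by edgeR), calls lost in 7 and 9 of the 18 alternatives. Of 6 tested genes of excitation-contraction coupling 1 was higher (16.7%, under the share of all tested genes) and 0 were lower, also with p unadjusted. The higher gene was sypl2b, with 15, 35 and 69 counts in the iridophore libraries and 1 in each control library (adjusted p 8.29e-06 by edgeR). The others, among them the junction genes jph2, srl and hrc, lay between -0.68 and 0.30 on the log2 scale.

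Of 14 tested genes of muscle energy supply, 2 (14.3%) were higher and 5 lower, against 22.1% and 17.8% of all tested genes. Their median log2 fold change was -0.18. The list took a mean of 0.646% ± 0.0648 of the counts in the iridophore libraries and 0.959% ± 0.0317 in the control libraries (SD, n = 3 each). Every iridophore library lay under every control library. Adenylate kinase ak1 rose by 0.93 (± 0.21 SE, adjusted p 0.0062 by edgeR), and fabp3, a fatty acid carrier, by 5.28 (± 0.90 SE, adjusted p 0.00139 by edgeR), with 14, 127 and 44 counts in the iridophore libraries, or 3.68 without iridophore replicate 2. Myoglobin (mb), the oxygen store of aerobic muscle and heart, fell from 167 ± 49.8 to 37.1 ± 10.9 CPM (SD, n = 3 each; log2 fold change -2.12, ± 0.31 SE, adjusted p 0.000562 by edgeR). The lactate dehydrogenase gene ldha fell by 1.68 on the log2 scale (± 0.18 SE, adjusted p 9.85e-05 by edgeR), and this and other glycolytic genes are used in many cell types. The other genes called lower were gapdh (-0.71), cox6a2 (-0.84) and gys1 (-1.03), with edgeR adjusted p of 0.0327, 0.0392 and 0.0407. Of 8 tested transcription factor and fusion genes 1 (12.5%) was higher and 2 were lower, against the same shares of all tested genes. The lower genes were jam2a at -1.65 (± 0.32 SE, adjusted p 0.00257 by edgeR) and prdm1a, a factor of slow muscle and other lineages, at -1.33 (± 0.35 SE, adjusted p 0.0142 by edgeR). The call of prdm1a was lost in replicates 2 and 3 alone (edgeR adjusted p 0.0673). The muscle determination gene myod1 was not called (0.46, ± 0.41 SE, adjusted p 0.402 by edgeR), and mef2aa, a factor of muscle and other tissues, rose by 1.81 (± 0.42 SE, adjusted p 0.00711 by edgeR). Of 6 tested smooth muscle genes 4 were higher and 0 lower (4 and 1 at an unadjusted p under 0.05), with myh11a at 2.83 (± 0.52 SE, adjusted p 0.00204 by edgeR) on at most 13 counts per library, myl9b at 1.01 (± 0.28 SE, adjusted p 0.0164 by edgeR), myl9a at 1.00 (± 0.28 SE, adjusted p 0.0176 by edgeR), calls that were each lost in 3 of the 18 alternatives, and tagln at 2.21 (± 0.50 SE, adjusted p 0.00614 by edgeR), or 1.24 without iridophore replicate 2.

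Markers of other cell types that a sort of dissociated larvae can hold are given here for comparison, beside 22.1% of all tested genes called higher and 17.8% lower. All 6 tested erythrocyte genes were lower by edgeR, from -1.27 to -0.69 on the log2 scale, with the globin genes hbbe1.3 at -1.27 and hbbe1.1 at -1.14, and their list took 0.0798%, 0.0830% and 0.0855% of the counts in the iridophore libraries and 0.181%, 0.171% and 0.225% in the control libraries. Of 8 epidermal genes icn was higher (2.85, ± 0.63 SE, adjusted p 0.00562 by edgeR) and krt92 lower (-0.89, ± 0.25 SE, adjusted p 0.0195 by edgeR; lost without iridophore replicate 2, edgeR adjusted p 0.0818), with a median log2 fold change of -0.35, and of 6 neuronal genes 0 were called by edgeR or at an unadjusted p under 0.05 (median -0.05). The part of muscle cells or muscle RNA in the iridophore sort was not tested, and neither was expression of fast muscle genes in iridophores. In these bulk counts the sources cannot be told apart.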

How the data were processed

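The authors deposited raw, unnormalized counts for 11016 rows named by gene symbol in 6 libraries. The submitters' processing notes name cutadapt, STAR 2.5.2b, HTSeq, DESeq2 1.36.1 and the build danRer11. The use of molecular identifiers and the treatment of reads shared by gene copies are not given in the sources used here. Of the 75 muscle rows, 66 matched a RefSeq symbol of GRCz12tu, used for names and gene order alone, and 6 carry a numeric suffix. The table has 0 columns without a sample.

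Counts were tested with the edgeR 4.0.16 quasi-likelihood F test in R 4.3.3, with group as the term, TMM scaling and the default expression filter (minimum count 10, minimum total 15). Benjamini-Hochberg adjustment ran over 6849 genes, with a threshold of 0.05. SE is the absolute log2 fold change over the square root of F. CPM uses TMM-adjusted totals of tested genes. Counts of libraries of the same group differed by more than sampling noise, at 3.21 to 23.8 in chi-square per degree of freedom. DESeq2 1.42.0 and limma 3.58.1 were alternatives. The fitting code was run on simulated counts with a common dispersion and no replicate structure. That run checks the code and not how well the fit suits these data. The members, classes and lists were chosen with earlier results of these data known. All members were accounted for. For each other list, at most the 4 highest and 2 lowest called genes were eligible for naming, and further genes named were chosen after their values were seen.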

Additional observations from a re-analysis of the deposited data

How the results depend on the processing

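The members were refitted under 18 alternatives, and 0 of the 30 called members changed sign in any of them. Of the 27 called higher, 18 kept that call in all 18. TMM computed without ribosomal protein rows, an alternative chosen after seeing the data, gave 27 higher and 3 lower. The count called higher was 20 to 29 (27 in the reported fit), lowest without control replicate 2. Of all tested genes 16.3% to 24.4% were called higher across the fits (22.1% in the reported fit). From 860 to 1514 genes were called lower (1217 in the reported fit). The count called lower, 3 in the reported fit, was 5 with upper-quartile factors, 5 with DESeq2, 1 with limma-voom, 6 with the replicate block, 7 with a term for the library name's ending, 9 in replicates 2 and 3 alone, and 1 to 7 when 1 library was left out, highest without control replicate 1. The median log2 fold change of 0.48 became 0.32 with upper-quartile factors, 0.37 with no filter, 0.39 with the replicate block, 0.27 in replicates 2 and 3 alone, and 0.24 to 0.59 when 1 library was left out. Upper-quartile factors moved the median of all genes from 0.01 to -0.14. Causes were not tested.

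Reversals were seen only in members that were not called. When 1 library was left out, log2 fold changes ranged from -0.53 to 0.12 for pvalb4, -1.23 to 0.097 for casq2, -0.23 to 0.53 for pvalb8, -0.055 to 0.47 for actc1a, -0.73 to 0.16 for casq1b, -0.061 to 0.44 for desma, -0.30 to 0.013 for ldb3b, -0.42 to 0.037 for neb, -0.13 to 0.93 for myl2a, -0.53 to 0.16 for tnnc1b, -0.12 to 0.69 for tnni1c, -0.60 to 0.073 for tpm2 and -0.065 to 0.27 for atp2a1l. For pvalb8 they were also -0.0076 with upper-quartile factors, -0.089 with limma-voom and -0.035 in replicates 2 and 3 alone.

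Same-numbered libraries correlated in their deviations from group means at 0.315, 0.071 and 0.175, and unlike-numbered ones at -0.241 to 0.120. Deviations cancel within a group, so positive correlations of some pairs bring negative ones of others, and this contrast is partly built in. Iridophore replicates 1 and 3 correlated best with the control library of their own number, and iridophore replicate 2 with control replicate 3. The labels name no pairing or batch, so none entered the reported fit, and whether libraries share a batch was not tested. The replicate block called 2971 genes and the term for the library name's ending 3141, against 2730. Depth limits the slow and heart classes, where many rows had under 10 counts in an iridophore library.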
